A study of Mus musculus with 12 samples.

Results

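Appl2, Nol6, Serpine2 and Clic1 are 4 genes of the mouse that were picked for how their response to thyroid hormone differed between times of treatment, and they stand for 4 of the 12774 gene symbols in the deposited table. All 4 passed the filter on low values that left 10577 genes for the tests (at least 1 RPM in at least 3 libraries). RPM is the number of sequence tags of a gene per fixed total of tags in its library. The cells were murine neural progenitors named C17.2 that stably expressed a tagged thyroid hormone receptor, alpha in the C17.2a line and beta in the C17.2b line. Each line spent 24 h in medium without serum and was then exposed to 1e-07 M of T3, the active form of thyroid hormone, or left untreated, for 6, 12 or 24 h. There was 1 library for each line, treatment and time, 12 in all. The labels name neither the promoter of the receptor transgene nor whether a line is a single clone, and every library, untreated ones included, comes from cells that carry a transgene and were deprived of serum.

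Thyroid hormone receptors sit on DNA in the nucleus, hold target genes down with corepressors when no hormone is bound, and recruit coactivators when T3 binds. Genes with a receptor site respond quickly, and genes further down the chain can follow later through the products of the first ones. In the developing brain the hormone is known for its part in the timing of progenitor division and differentiation. Appl2 codes for an adaptor protein on early endosomes that binds RAB5 and takes part in adiponectin and insulin signalling. Nol6 codes for a nucleolar protein of the machinery that processes the small ribosomal subunit. Serpine2, or protease nexin, is a secreted inhibitor of thrombin and plasminogen activators that is made by glia and progenitors and known for promoting neurite outgrowth. Clic1 is a member of the chloride intracellular channel family, a cytosolic protein with a glutathione transferase fold that can insert into membranes.

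The genes were chosen by their ratios of T3 over untreated at the 3 times, so the ratios below are a description and carry no test. The implied depth, read from the RPM that 1 tag is worth, lay between 7.14e+06 and 1.91e+07 tags per library, so that 3 tags corresponded to 0.157 to 0.42 RPM. The lowest of the 48 values of the genes, 8.59 RPM of Clic1 in C17.2a with T3 at 24 h, stood for about 72 tags. The counting error of a log2 ratio of these genes was at most 0.176, and it covers counting alone. The C17.2a T3 24 h library stood apart from the other 3 libraries of that time. Across the genes tested its levels had Spearman correlations of 0.91 to 0.922 with them, against 0.958 to 0.968 among those 3. Within pairs, T3 and untreated levels had a correlation of 0.91 in C17.2a at 24 h and 0.966 to 0.98 in the other 5 pairs. The interquartile range of the log2 ratios was 1.13 in this pair and 0.397 to 0.476 in the others. Each 24 h value is therefore given for C17.2b as well, where that library plays no part.

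The progenitor label was checked with markers. Vim lay between 1112 and 4941 RPM, Sox2 between 62.0 and 306 RPM and Nes between 70.2 and 642 RPM over all libraries, and 6 of the 7 measured progenitor markers had at least 1 RPM throughout. Pax6 and Hes5 were not analysed here. Neuronal markers summed to 62.6 to 622 RPM in T3 libraries and 97.3 to 368 RPM in untreated ones, and astrocyte markers to 36.7 to 56.1 RPM and 37.9 to 60.5 RPM. The microglial marker Cx3cr1 reached at most 0.42 RPM. The fibroblast and mesenchyme markers, of which 4 of 5 were measured, summed to 1259 to 7308 RPM in T3 libraries and 1371 to 4838 RPM in untreated ones, almost all of it from the collagens Col1a1 and Col1a2, while Pdgfra stayed at or under 6.68 RPM and Dcn at or under 7.28 RPM. The highest sum was that of the C17.2a T3 24 h library, and its part in the 24 h values of that line was not tested. In these bulk libraries a change in the mix of cells and a change of RNA per cell cannot be told apart.

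The stretch around the start of transcription is shown for the 3 genes that matched a table of RefSeq promoters (build GRCm38.p6), because a receptor site there is what a prompt target could carry. Each runs from 250 bases before the start to 50 bases after it, on the gene's own strand, with a receptor half-site in capitals. The windows are chr10:83648615-83648914 on the minus strand for Appl2, chr1:79858616-79858915 on the minus strand for Serpine2 and chr17:35049993-35050292 on the plus strand for Clic1. Nol6 is named only.
Appl2: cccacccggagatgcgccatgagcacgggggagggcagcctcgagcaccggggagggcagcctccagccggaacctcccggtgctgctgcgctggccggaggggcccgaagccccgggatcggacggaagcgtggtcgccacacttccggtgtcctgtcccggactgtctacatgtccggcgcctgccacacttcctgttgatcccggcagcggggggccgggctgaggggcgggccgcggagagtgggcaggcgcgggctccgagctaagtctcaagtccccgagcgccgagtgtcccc
Serpine2: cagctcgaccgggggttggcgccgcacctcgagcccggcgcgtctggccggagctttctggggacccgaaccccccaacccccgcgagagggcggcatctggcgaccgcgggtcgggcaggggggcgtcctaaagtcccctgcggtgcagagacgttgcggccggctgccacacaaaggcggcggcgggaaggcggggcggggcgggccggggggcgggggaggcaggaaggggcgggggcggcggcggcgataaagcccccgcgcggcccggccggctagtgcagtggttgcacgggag
Clic1: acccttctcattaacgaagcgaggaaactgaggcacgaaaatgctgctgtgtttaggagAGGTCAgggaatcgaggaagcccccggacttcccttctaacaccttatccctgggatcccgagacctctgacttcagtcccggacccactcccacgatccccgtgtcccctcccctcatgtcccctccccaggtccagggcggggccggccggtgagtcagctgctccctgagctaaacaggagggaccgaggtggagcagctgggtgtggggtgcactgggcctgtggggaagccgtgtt
The half-site AGGTCA was searched on both strands. It was found once, in the Clic1 window, starting 191 bases before the start and on the strand of the gene. Of 32544 windows of this length, 16.2% held it. A direct repeat of the half-site spaced by 4 letters, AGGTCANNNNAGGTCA, which contains the first motif, was in none of the 3 windows and in 0.0154% of all windows. The windows were rich in G and C, at 73.0% for Appl2, 77.7% for Serpine2 and 62.0% for Clic1, against a median of 53.0%.

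Appl2 and Nol6 were higher with T3 at 24 h in both lines, and Clic1 and Serpine2 were lower, while at 6 h all 4 lay within 2-fold of the untreated level in both lines. The time at which the ratio left that range differed between them. Appl2 passed 2-fold by 12 h, and Nol6 and Clic1 by 24 h. At 6 h Appl2, Clic1 and Serpine2 were all lower with T3 in both lines. In C17.2a and C17.2b the ratios then were 0.834 and 0.805 for Appl2, 0.877 and 0.685 for Clic1, 0.655 and 0.625 for Serpine2. Serpine2 moved in steps, with a lower ratio at each later time in both lines. The word delayed thus describes Nol6, Clic1 and Appl2 more closely than Serpine2, whose response was gradual.

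**Figure D1:**
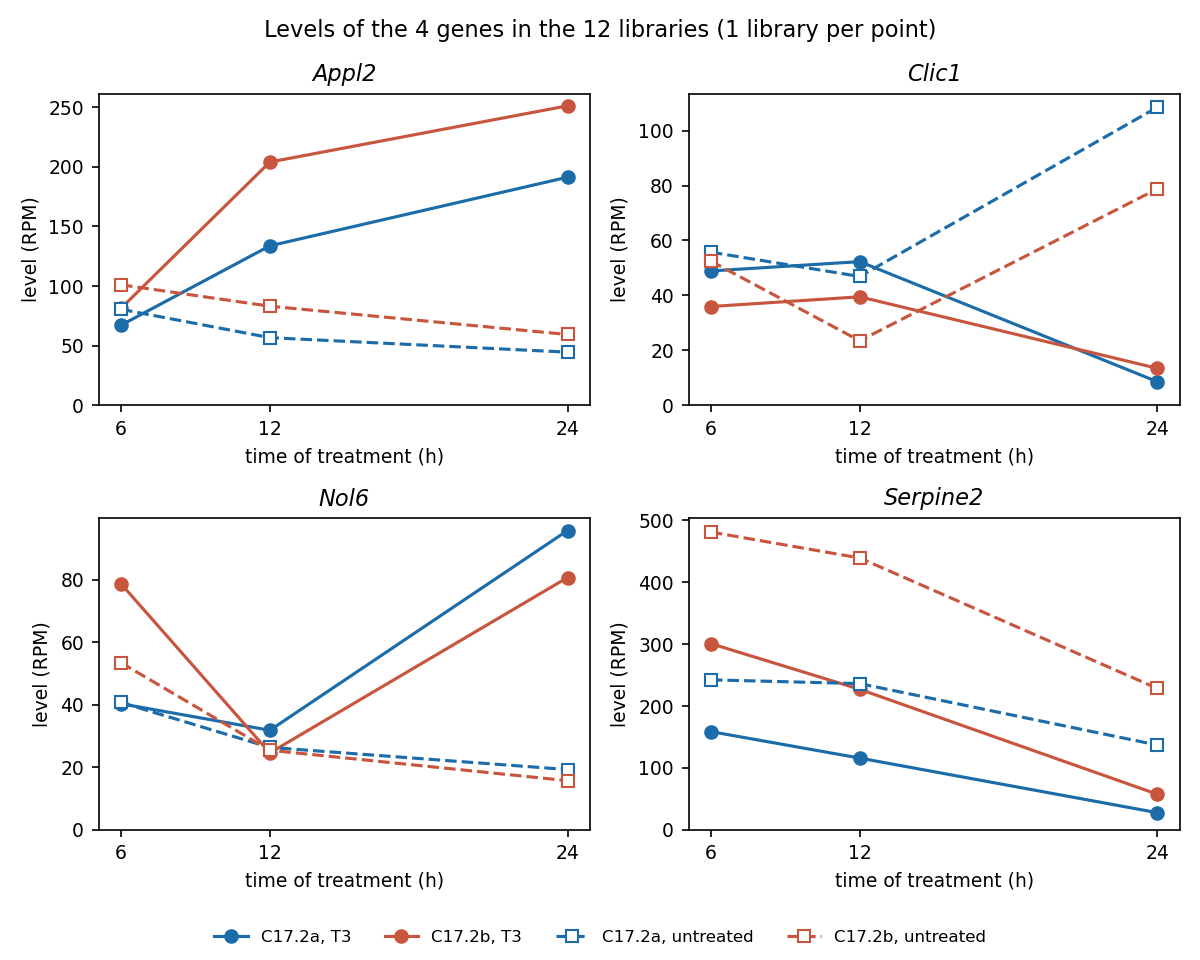
Level in RPM of Appl2, Clic1, Nol6 and Serpine2 by hours of treatment, with filled circles and solid lines for T3, open squares and broken lines for untreated, blue for C17.2a and red for C17.2b. Each point is 1 library. At 24 h the T3 points of Appl2 and Nol6 lie above the untreated ones in both lines, and those of Clic1 and Serpine2 lie below.

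For Appl2, the C17.2a levels with T3 were 67.2, 134 and 191 RPM at 6, 12 and 24 h, against 80.6, 56.8 and 44.6 RPM untreated. In C17.2b they were 81.4, 204 and 251 RPM with T3, against 101, 83.1 and 59.4 RPM untreated. At 6 h the T3 library was the lower one in both lines, and from 12 h it was the higher one in both. The 6 h difference in C17.2a lay within the interquartile range of all genes tested. The ratio of T3 over untreated was 0.834, 2.36 and 4.29 in C17.2a and 0.805, 2.45 and 4.23 in C17.2b. The ratios of the lines were close at every time: on the log2(RPM + 1) scale C17.2b minus C17.2a came to -0.05, 0.06 and -0.01 at 6, 12 and 24 h. Of the genes tested, 2.06% at 12 h in C17.2a and 2.75% in C17.2b were at least 2-fold higher with T3, and at 24 h the shares were 5.34% and 4.59%.

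For Nol6, the C17.2a levels with T3 were 40.4, 31.9 and 95.8 RPM at 6, 12 and 24 h, against 40.8, 26.4 and 19.3 RPM untreated. In C17.2b they were 78.7, 24.6 and 80.7 RPM with T3, against 53.5, 25.5 and 15.7 RPM untreated. The untreated levels dropped step by step in both lines. With T3 they were lowest at 12 h in both lines, where they lay next to the untreated ones, and stood far above them at 24 h. The ratio was 0.99, 1.21 and 4.97 in C17.2a and 1.47, 0.967 and 5.13 in C17.2b. At 24 h Nol6 was the gene with rank 25 from the top of the 10577 tested in C17.2a and rank 70 in C17.2b.

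For Serpine2, the C17.2a levels with T3 were 159, 116 and 27.7 RPM at 6, 12 and 24 h, against 242, 236 and 137 RPM untreated. In C17.2b they were 301, 227 and 57.5 RPM with T3, against 481, 439 and 228 RPM untreated. Within a line and time the T3 library was the lower one in every pair, and within a line the gap in ratio widened with time. The ratio was 0.655, 0.491 and 0.202 in C17.2a and 0.625, 0.517 and 0.252 in C17.2b. On the log2(RPM + 1) scale the difference was -0.61, -1.02 and -2.27 in C17.2a and -0.68, -0.95 and -1.97 in C17.2b, so at 12 h it was past 2-fold in C17.2a and just short of it in C17.2b. With median-ratio scaling of the libraries the C17.2b value at 12 h was -1.02.

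For Clic1, the C17.2a levels with T3 were 48.9, 52.3 and 8.59 RPM at 6, 12 and 24 h, against 55.7, 46.9 and 109 RPM untreated. In C17.2b they were 36.0, 39.5 and 13.5 RPM with T3, against 52.5, 23.5 and 78.8 RPM untreated. The T3 library was the lower one at 6 h, the higher one at 12 h and by far the lower one at 24 h, in both lines. In C17.2a the 6 and 12 h differences lay within the interquartile range of all genes tested. The ratio was 0.877, 1.12 and 0.0792 in C17.2a and 0.685, 1.68 and 0.171 in C17.2b. The C17.2b ratio at 12 h came with the lowest untreated level of the gene, 23.5 RPM, next to 52.5 and 78.8 RPM at the other times, while the T3 levels at 6 and 12 h were close to each other. At 24 h Clic1 was 12.6-fold lower with T3 in C17.2a and 5.86-fold lower in C17.2b, where it had rank 10 from the bottom of the 10577 genes tested.

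**Figure D2:**
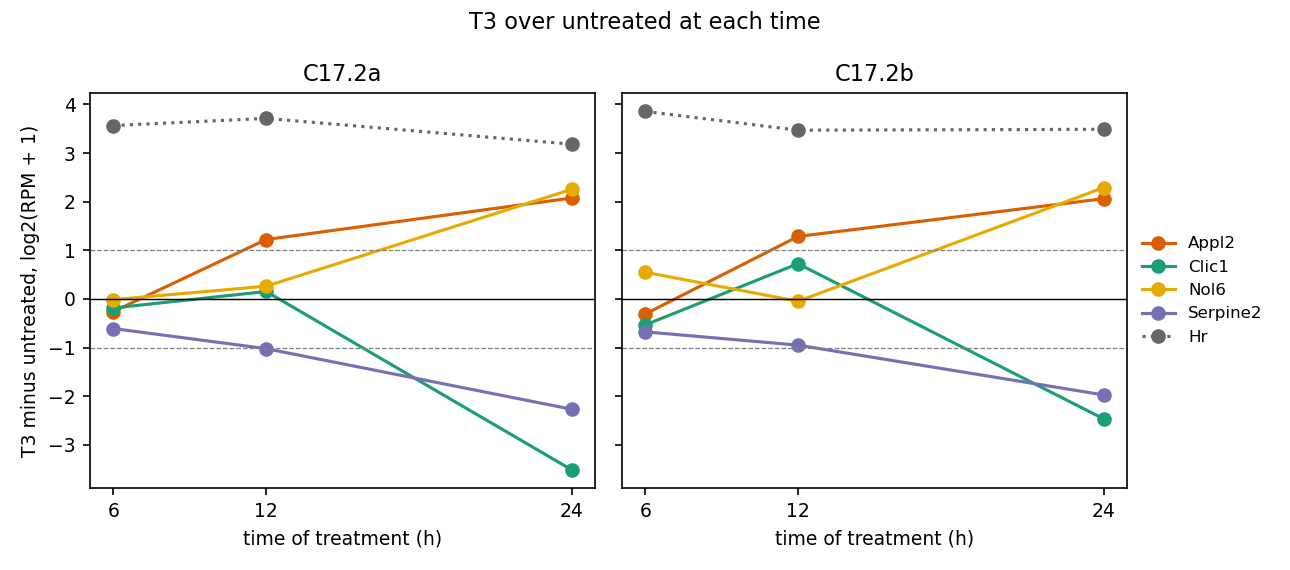
T3 minus untreated on the log2(RPM + 1) scale by hours of treatment, C17.2a on the left and C17.2b on the right, with 1 pair of libraries per point. Solid lines are the 4 genes, the dotted line is Hr, and broken grey lines mark 2-fold. Hr lies above 3 at every time, whereas the 4 genes lie within 1 of zero at 6 h.

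Hr, the gene of the corepressor hairless and a direct target of the hormone, shows the contrast with a prompt response. It had 36.4, 34.3 and 47.0 RPM with T3 at 6, 12 and 24 h in C17.2a, against 2.16, 1.69 and 4.29 RPM untreated. In C17.2b it had 75.6, 67.7 and 115 RPM with T3, against 4.29, 5.20 and 9.36 RPM untreated. The ratio was thus 16.8 at 6 h in C17.2a and 17.6 in C17.2b, at the time when the ratios of the 4 genes lay between 0.625 and 1.47.

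The background at 24 h differed between the lines. In the C17.2a pair 18.3% of the genes tested were at least 2-fold lower with T3 and in the C17.2b pair 1.72% were, against 1.1% and 1.3% at 6 h. At 12 h the shares of lower genes were 0.86% in C17.2a and 1.33% in C17.2b. At 6 h the shares of higher genes were 1.74% and 2.5%. A 2-fold fall in the C17.2a pair at 24 h was thus common among all genes, and the falls of Clic1 and Serpine2 ranked 70 and 325 from the bottom there, against 10 and 28 in C17.2b. Appl2 ranked 41 from the top in C17.2a and 98 in C17.2b.

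**Figure D3:**
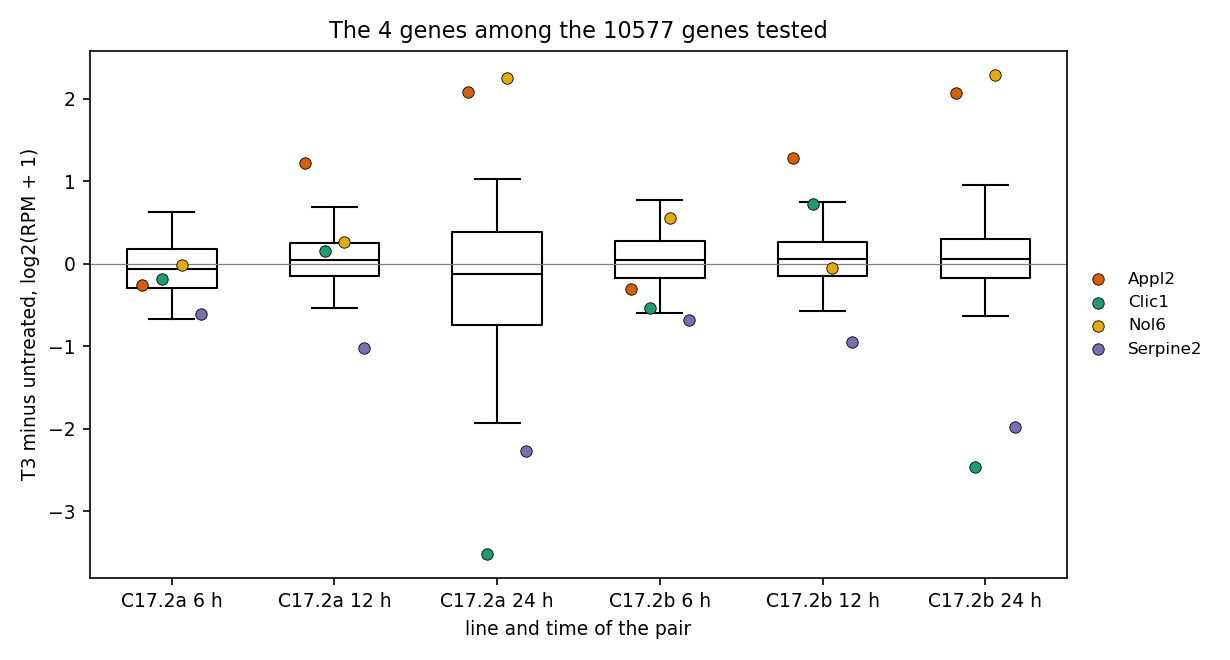
T3 minus untreated on the log2(RPM + 1) scale in each of the 6 pairs, with boxes for the quartiles and whiskers for the 5th and 95th percentiles of the 10577 genes tested, and points for the 4 genes. The C17.2a 24 h box is the widest, with an interquartile range of 1.13, and at 24 h the 4 genes lie outside the whiskers in both lines.

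The shape that the 4 genes share, past 2-fold at 24 h in both lines in 1 direction and within 2-fold at 6 h in both, was held by 97 genes, 51 of them higher (0.482% of the genes tested) and 46 lower (0.435%). In C17.2b alone, without any C17.2a library, 323 genes were higher (3.05%) and 136 lower (1.29%), and the 4 genes were among them. Of the 51 higher genes 10 were also past 2-fold at 12 h in both lines, Appl2 among them (0.0945%), and 27 were within 2-fold at 12 h in both, Nol6 among them (0.255%). Of the 46 lower genes 25 were within 2-fold at 12 h in both lines, Clic1 among them (0.236%), and 6 were past it in both (0.0567%). Serpine2 was past it in C17.2a at 12 h and not in C17.2b. Since these ratios chose the genes, nothing follows from their place in these counts.

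A ratio can widen because the treated cells change, because the untreated ones do, or both. The median gene itself was higher at 24 h than at 6 h, by 0.27 (T3) and 0.39 (untreated) on the log2(RPM + 1) scale in C17.2a and by 0.45 (T3) and 0.43 (untreated) in C17.2b, so changes over time are given relative to that median. The 24 h minus 6 h difference of Appl2 was 1.23 with T3 and -1.23 untreated in C17.2a, and 1.16 with T3 and -1.18 untreated in C17.2b. For this gene both arms moved away from each other by about the same amount. That of Clic1 was -2.65 with T3 and 0.56 untreated in C17.2a, and -1.80 with T3 and 0.15 untreated in C17.2b, so most of the gap came with the T3 libraries. That of Nol6 was 0.96 with T3 and -1.43 untreated in C17.2a, and -0.41 with T3 and -2.13 untreated in C17.2b. In C17.2b the Nol6 level with T3 at 24 h was 1.03 times that at 6 h, while the untreated level was 0.294 times that at 6 h. That of Serpine2 was -2.75 with T3 and -1.21 untreated in C17.2a, and -2.82 with T3 and -1.50 untreated in C17.2b, so it was lower at 24 h in both arms and more so with T3.

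**Figure D4:**
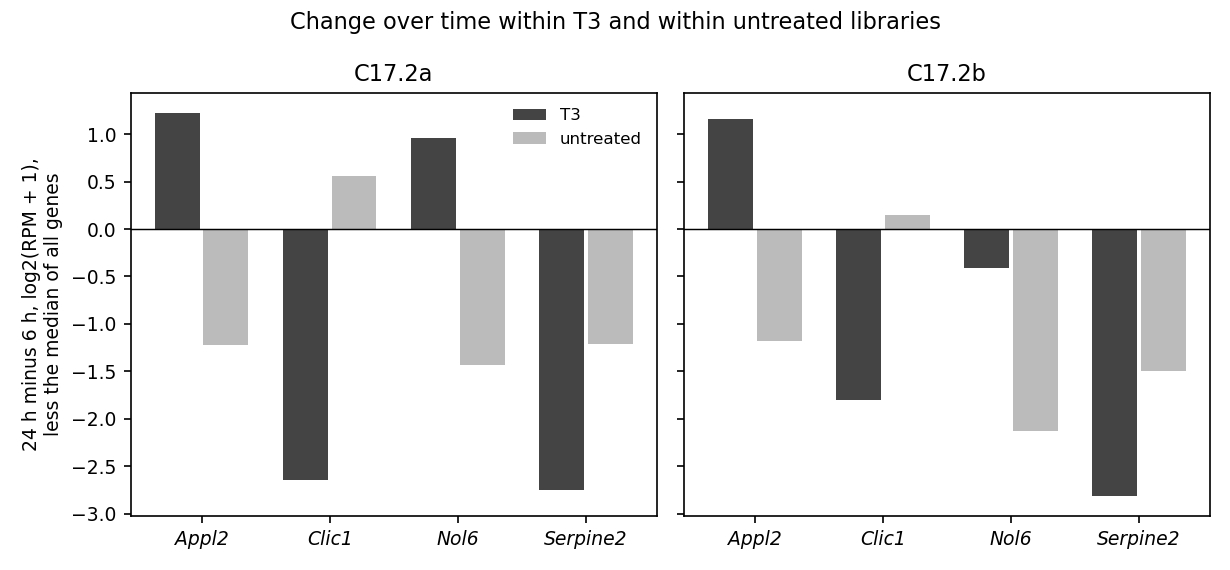
Difference of 24 h minus 6 h on the log2(RPM + 1) scale, less the median of the 10577 genes tested, for the 4 genes in T3 libraries (dark bars) and untreated libraries (light bars) of C17.2a (left) and C17.2b (right). Each bar rests on 2 libraries. The bars of Appl2 point in opposite directions in both lines, and those of Serpine2 point down in both arms.

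The lines were also compared without T3, a contrast that did not choose the genes, with time as a block over the 6 untreated libraries. Serpine2 was higher in C17.2b than in C17.2a, by 0.87 (SE 0.12, n = 3 times) on the log2(RPM + 1) scale or 1.83-fold, with an adjusted p of 0.0024 in limma, and it was higher at 3 of 3 times (ratios of 1.99, 1.86 and 1.67 at 6, 12 and 24 h). The filter left 10192 genes over these 6 libraries, of which 8.85% passed, 2.93% in this direction and 5.92% in the other. Over the alternatives its adjusted p in limma lay between 4.91e-05 and 1.0. The call was lost without a time block (adjusted p 1.0), a fit that called 1 gene in all. Appl2 had a difference of 0.42 (SE 0.12, adjusted p 0.0562 in limma), with a higher level in C17.2b at 3 of 3 times, Clic1 of -0.50 (SE 0.16, adjusted p 0.0965), with a higher level in C17.2b at 0 of 3 times, and Nol6 of 0.02 (SE 0.16, adjusted p 0.964). None of these 3 passed the threshold of 0.05, although Appl2 did with median-ratio scaling (adjusted p 0.0314 in limma, 0.0561 to 1.0 under the other alternatives) and Clic1 did without the 6 h libraries (0.0397, and 0.0562 to 1.0 under the others). No label says that the times are separate cultures, so these p-values measure the spread between 3 pairs of libraries.

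The genes whose 6 pair differences lay nearest were found by the root mean square difference on the log2(RPM + 1) scale over the 6 pairs, 3 for each gene. Nearest to Appl2 were Me1, malic enzyme, at 0.38, the transcription factor Fos at 0.41 and the growth factor Hbegf at 0.44. Me1 had differences of 0.30, 1.19 and 1.76 at 6, 12 and 24 h in C17.2a and 0.30, 1.57 and 2.02 in C17.2b, so it too passed 2-fold by 12 h in both lines. Nearest to Serpine2 were the lysophosphatidic acid receptor Lpar4 at 0.24, the histone deacetylase Hdac9 at 0.28 and the transcription factor Sox13 at 0.30. Lpar4 had -0.95, -1.07 and -2.23 in C17.2a and -1.06, -0.70 and -1.80 in C17.2b. Hdac9 never exceeded 7.07 RPM and Sox13 never exceeded 13.7 RPM.

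Nearest to Nol6 were the semaphorin Sema6b at 0.46, which never exceeded 5.73 RPM, Ifi202b of the interferon-inducible HIN200 family at 0.50, and the calcium-binding protein Pdcd6 at 0.50. Ifi202b has near-identical relatives, and its tags may be shared with them. Pdcd6 had 0.08, 0.07 and 1.11 in C17.2a and 0.45, 0.14 and 1.97 in C17.2b, so it was past 2-fold at 24 h only, as Nol6 was. Nearest to Clic1 were Cript, a binding partner of the synaptic scaffold PSD-95, at 0.52, the ADP-ribosyltransferase Art3 at 0.56 and the zinc finger gene Zfp580 at 0.76. Zfp580 never exceeded 10.31 RPM and Art3 never exceeded 15.73 RPM. Cript had 0.06, 0.21 and -2.83 in C17.2a and -0.27, 0.05 and -1.70 in C17.2b. Among the 4 genes, Appl2 and Nol6 differed by 0.77 and Serpine2 and Clic1 by 1.01 on the same measure. Turned upside down, Serpine2 lay at 0.57 from Appl2 and at 0.59 from Nol6, and Clic1 at 0.62 from Nol6 and at 1.23 from Appl2.

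Genes of the pathways around the 4 were read from lists, in the response shared by all 6 pairs and in the response at 24 h minus that at 6 h. In the shared response 6.45% of the genes tested passed in limma, 4.09% higher and 2.35% lower, and 18.1% had an unadjusted p under 0.05, with a median difference of -0.01. In the 24 h minus 6 h contrast 0 genes (0.0%) passed after adjustment and 593 had an unadjusted p under 0.05 (5.61%), with a median of -0.03. Without the C17.2a 24 h pair the shared response called 9.14% higher and 5.81% lower, and the 24 h minus 6 h contrast called 76 genes (0.731%), none of them on the lists below. Without the C17.2b 24 h pair, the 24 h minus 6 h contrast called 3342 of 10348 genes (32.3%). Genes of every list below were among them. The 24 h response rests there on the C17.2a pair alone, so no conclusion is drawn from these calls. The median of each list in this contrast is given with and without that pair.

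Around Nol6, the list of small subunit processome and rRNA processing genes had 42 members, all tested. In the shared response 1 rose and 0 fell, and the median was 0.14. The 1 that rose was Rcl1, a processing factor of the 18S rRNA precursor, at 0.62 (SE 0.11, adjusted p 0.0109 in limma), and leaving out C17.2b at 12 h ended its call (adjusted p 0.0531 in limma, with 0.000741 to 0.049 under the other alternatives). Without the C17.2a 24 h pair 3 of the 42 rose and 0 fell, Rcl1 at 0.52, the RNA polymerase I subunit Polr1a at 0.33 and the processome subunit Tbl3 at 0.49. The next by p were Utp15, Utp18 and Wdr75, all subunits of the processome, at 0.37, 0.42 and 0.36 (adjusted p 0.148, 0.176 and 0.289 in limma). At 24 h 13 of the 42 were past 2-fold in either direction in C17.2a and 0 of 42 in C17.2b, against 23.6% and 6.32% of all genes tested. In C17.2b the median of the list was -0.01 and Nol6 itself was at 2.29. Rrp7a, the partner of Nol6 in a subcomplex of the processome known from yeast, was at -2.24 in C17.2a and 0.32 in C17.2b at 24 h. In the 24 h minus 6 h contrast 0 of the 42 passed in limma, 2 had an unadjusted p under 0.05 and the median was -0.12. The median of the list in that contrast was -0.23 without the C17.2a 24 h pair and -0.17 without the C17.2b 24 h pair.

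Around Appl2, the list of APPL endosome genes and adiponectin receptors had 15 members, all tested, and 0 rose and 0 fell in the shared response in limma, with 1 of 15 at an unadjusted p under 0.05, where 18.1% of all genes were. The same counts of 0 and 0 came without the C17.2a 24 h pair. Appl1, the close relative of Appl2, was at 0.17 (SE 0.10, adjusted p 0.441 in limma), with pair differences of 0.30 in C17.2a and 0.27 in C17.2b at 24 h. The others with the smallest p were the RAB5 effector Eea1 at 0.36, the adiponectin receptor Adipor2 at -0.28 and Zfyve20 (now Rbsn), another RAB5 effector, at 0.13 (adjusted p 0.214, 0.522 and 0.535 in limma). At 24 h 5 of the 15 were past 2-fold in C17.2a and 0 of 15 in C17.2b, against 23.6% and 6.32% of all genes. In the 24 h minus 6 h contrast 0 passed in limma and 1 had an unadjusted p under 0.05. The median of the list there was -0.10 over all pairs. It was -0.04 without the C17.2a 24 h pair and -0.09 without the C17.2b 24 h pair.

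Around Clic1, 6 of 9 listed relatives and partners were tested, namely CLIC proteins, an omega glutathione transferase of the same fold and the ERM proteins that tie membrane to actin. In the shared response 0 rose and 0 fell in limma, and 4 of the 6 had an unadjusted p under 0.05, where 18.1% of all genes did. Without the C17.2a 24 h pair 0 rose and 2 fell, Clic4 at -0.28 and Msn at -0.36. Over all 6 pairs Clic4 was at -0.22 (SE 0.08) and Clic5 at 0.31 (SE 0.13), with adjusted p of 0.207 and 0.238 in limma, and at 24 h in C17.2b they had -0.24 and 0.57 where Clic1 had -2.46. Ezrin, Ezr, was at 0.55 and moesin, Msn, at -0.54 (adjusted p 0.101 and 0.12 in limma). Ezr had pair differences of 1.19 in C17.2a and 1.06 in C17.2b at 24 h, and 0.15 and 0.09 at 6 h. In the 24 h minus 6 h contrast 0 of the 6 passed in limma, and 1 had an unadjusted p under 0.05. The median of the list there was 0.31 over all pairs. It was 0.04 without the C17.2a 24 h pair and 0.59 without the C17.2b 24 h pair. At 24 h 3 of the 6 were past 2-fold in C17.2a and 1 of 6 in C17.2b, against 23.6% and 6.32% of all genes.

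Around Serpine2, 9 of 21 listed genes of plasminogen activation, thrombin receptors and their inhibitors were tested, and 1 rose and 0 fell in the shared response, with a median of -0.06. The 1 that rose was F3, tissue factor, which starts coagulation and is neither an activator of plasminogen nor an inhibitor, at 2.13 (SE 0.23, adjusted p 0.00113 in limma). Without the C17.2a 24 h pair F3 was at 1.95, and Serpinf1 also rose, at 0.49. F3 had 1.74, 2.03 and 3.01 at 6, 12 and 24 h in C17.2a and 1.22, 1.85 and 2.90 in C17.2b. The plasminogen activator Plat, one of the proteases that Serpine2 inhibits, was at -0.57 (SE 0.23, adjusted p 0.221 in limma). Serpinf1, a secreted serpin that acts on vessels and neurons, was at 0.36 (adjusted p 0.31 in limma). In the 24 h minus 6 h contrast 0 of the 9 passed in limma, and 2 had an unadjusted p under 0.05. The median of the list there was -0.04 over all pairs. It was -0.05 without the C17.2a 24 h pair and -0.43 without the C17.2b 24 h pair. At 24 h 4 of the 9 were past 2-fold in C17.2a and 1 of 9 in C17.2b, against 23.6% and 6.32% of all genes.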

How the data were processed

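The authors deposited 1 table of 12 columns in RPM, a unit read from the values, since every column has the sum of that unit. Per the labels, polyA RNA was reverse-transcribed, and the submitters' processing notes name the build mm9; the aligner and the rule for tags were not stated there. Between 91.1% and 94.2% of values under 3 RPM were whole multiples of 1 tag within 0.0055 RPM, so tags were recovered in part and a test for counts was not used. N/A was read as 0.

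Differences are on log2(RPM + 1), which understates changes of low genes. Fits used limma 3.58.1 in R 4.3.3 with eBayes trend, two-sided, Benjamini-Hochberg adjusted over all genes at 0.05. Each T3 library was blocked with the untreated one of its line and time, which served as repeats, and the spread therefore includes real differences between times and lines. The fits were tested on simulated data with the same noise in every gene and library, which leaves out the wider spread of the C17.2a 24 h pair. In that simulation the fit of 24 h minus 6 h missed most 2-fold changes. The members and lists were chosen with earlier results of these data known. Named genes were the members, Hr, 3 nearest genes for each member and up to 4 genes of each list with the smallest p; Rrp7a, Polr1a and Tbl3 were added after their values were seen. Alternatives were other pseudocounts, filters, median-ratio scaling, designs without blocks and leaving out each pair or time. Some genes that this rule picks are left out.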

Additional observations from a re-analysis of the deposited data

Results flagged for a closer look

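The T3 response of Appl2 pointed down at 6 h and up at 12 and 24 h in both lines. Averaged over the lines on the log2(RPM + 1) scale, the response at 12 h minus that at 6 h was 1.54, and that at 24 h minus 6 h was 2.35. The T3 response of Clic1 pointed up at 12 h and down at 6 and 24 h in both lines, with 0.80 for 12 h minus 6 h and -3.43 for 24 h minus 12 h. In C17.2a some of these signs rest on small values. Appl2 at 6 h (-0.26) and Clic1 at 6 and 12 h (-0.19 and 0.15) lay there within the interquartile range of all genes tested. The differences between times were not tested, since the same ratios chose the genes, and with 2 pairs at each time a shared sign is a weak description.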

How the results depend on the processing

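The pair differences of the 4 genes were recomputed 96 times, with pseudocounts of 0.5, 5 and none and with median-ratio scaling, the one without a pseudocount chosen after seeing the data. None of those past 2-fold changed sign, and 91 stayed within 2 counting SDs of the value given. The count of 97 genes past 2-fold at 24 h and within it at 6 h in both lines was 459 in C17.2b alone and 58 with a pseudocount of 5, both added after seeing the data. The shared response called 682 genes, 319 to 1554 when 1 pair was left out: 379 without the 12 h pair and 1554 without the 24 h pair of C17.2a, and 404, 319 and 419 without the 6, 12 and 24 h pair of C17.2b. The 24 h minus 6 h contrast called 0 to 3342 genes when 1 pair was left out, 3342 without the C17.2b 24 h pair, 76 without that of C17.2a, and 1 with no replicate block. The untreated lines differed in 902 genes, 404 to 1047 when 1 time was left out (404 without the 6 h libraries), and in 1 with no time block. The Nol6 line difference was -0.16 without the 6 h libraries, the opposite sign, and up to 0.17 without another time. The cause of these changes was not tested. With 1 library in each group, no value has a replicate of its own.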
